A study of Homo sapiens with 6 samples.

Results

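The genes described here are the integrin chains and the adaptor proteins of focal adhesions, taken from the deposited gene table of SNU-368, a human line labelled as hepatocellular carcinoma. Members were the protein-coding rows whose symbol names an integrin alpha or beta chain, with 20 named adaptors, which gave 46 of 60612 rows: 18 alpha chains, 8 beta chains and 20 adaptors. Of the 6 libraries, 3 came from cells with a short hairpin RNA against TFAM (shTFAM) and 3 from cells with a control hairpin (shCtrl), each group in the same line. The sources used here give no hairpin sequence, no number of hairpins or clones, no age of culture and no further treatment, and no origin of the replicates. Error here is therefore that among 3 samples of a group, which could be only technical. The single comparison asked how transcripts differ in cells with a hairpin against TFAM, the factor that packages and helps to transcribe mitochondrial DNA.

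Integrins are receptors for the extracellular matrix, each made of 1 alpha and 1 beta chain that cross the membrane together. The alpha chain largely sets the ligand, so that chains fall into collagen-binding, laminin-binding and RGD-binding receptors and a set typical of leukocytes. Talins and kindlins (the FERMT genes) bind the beta tail and activate the receptor, the complex of ILK, PINCH (LIMS1) and parvins anchors it, vinculin, zyxin and tensins tie it to actin, and FAK (PTK2), SRC, paxillin and the CAS proteins relay its signals. In the liver, hepatocytes are known to carry mainly the ITGA1, ITGA5 and ITGA9 chains, each with ITGB1.

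Libraries held 46263488 to 61058282 counts in shTFAM and 43286024 to 50910536 in shCtrl. The level that 3 counts stand for was 0.0491 to 0.0693 CPM (counts per 1e6), which covers counting error only. In a principal component analysis of log2 CPM scaled with the trimmed mean of M-values (TMM), the groups parted along the axis that held 52.7% of the variance. The next axis, with 15.5%, set shCtrl 3 away from shCtrl 1 and 2. Transcripts of mitochondrial DNA took 7.91 to 10.7% of counts in shTFAM and 10.1 to 14.2% in shCtrl. TFAM, the targeted gene, had 10.1, 10.1 and 8.47 FPKM in shTFAM 1, 2 and 3, against 13.5, 12.3 and 14.8 FPKM in shCtrl 1, 2 and 3, with FPKM being counts scaled to gene length and depth by the authors. The groups did not overlap, and the reduction was 1.34-fold (log2 fold change -0.42, SE 0.107, edgeR adjusted p 0.0377), a call lost on leaving out any 1 library (edgeR adjusted p 0.0676 to 0.0948). Of 9 hepatocyte markers, none exceeded 1 FPKM on average in either group and ALB, APOA1, APOA2, TTR, AFP and FGB had 0 counts in all libraries, although the cells are labelled as liver cancer. The list summed to 0.0871 to 0.310 FPKM in shTFAM and 0.0991 to 0.293 FPKM in shCtrl. Of 5 epithelial markers, which summed to 270.0 to 276 FPKM in shTFAM and 226 to 271 FPKM in shCtrl, the keratins KRT8 and KRT18 exceeded 1 FPKM. KRT8 was higher in shTFAM (log2 fold change 0.61, edgeR adjusted p 0.0160). KRT18 (-0.07, edgeR adjusted p 0.724) and KRT19 (0.47, edgeR adjusted p 0.333) did not pass. EPCAM and CDH1 averaged 0.0762 and 0.253 FPKM over the 6 libraries. Of 5 endothelial markers none exceeded 1 FPKM on average, and KDR had 0 counts. The endothelial sum was 0.444 to 0.700 FPKM in shTFAM and 0.386 to 0.531 FPKM in shCtrl.

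Of the 46 members, 32 passed the filter of a mean of at least 0.5 FPKM over the 6 libraries, and 16 of these rose and 1 fell in shTFAM by edgeR's quasi-likelihood test at an adjusted p of 0.05. Over all 14708 rows tested, 11.3% were called higher and 6.59% lower, 17.9% in all. That split of 1661 higher and 969 lower rows depended on the scaling: it was 1353 and 1266 with library totals and 1198 and 1771 with scaling to counts outside mitochondrial DNA, and limma on log2(FPKM + 1) gave 1278 and 1337. Of the members, 15 rose and 1 fell with library totals, 13 rose and 3 fell with scaling outside mitochondrial DNA, and 12 rose and 1 fell with limma. The median log2 fold change was 0.51 over the tested members and -0.015 over all rows. Among alpha chains 5 of 9 tested rose (ITGA5, ITGA1, ITGA3, ITGA6 and ITGAV; median 0.88), among beta chains 3 of 4 (ITGB1, ITGB4 and ITGB2; median 1.08), and among adaptors 8 of 19 rose and FERMT1 fell (median 0.33). No test of a difference between these classes was made. All 3 shTFAM libraries lay above all 3 shCtrl libraries in FPKM for 20 tested members, against 18.0% of all rows, and below them for 4, against 25.7% of all rows. In a fit of only the rows of at least 5 FPKM on average, 14 of 18 members were called, all higher, against 26.8% of these rows. The library shTFAM 3 was the highest of its group for 16 of the 32 tested members, or 50.0%, against 30.1% of all rows. Leaving out shCtrl 1 or shCtrl 2 lowered the 17 calls to 9 each, while the share of all rows called was 8.59% without shCtrl 1 and 7.81% without shCtrl 2. Leaving out shTFAM 2 or shTFAM 3 lowered them to 11 each, with 9.33% of all rows called without shTFAM 2 and 9.57% without shTFAM 3.

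**Figure D1:**
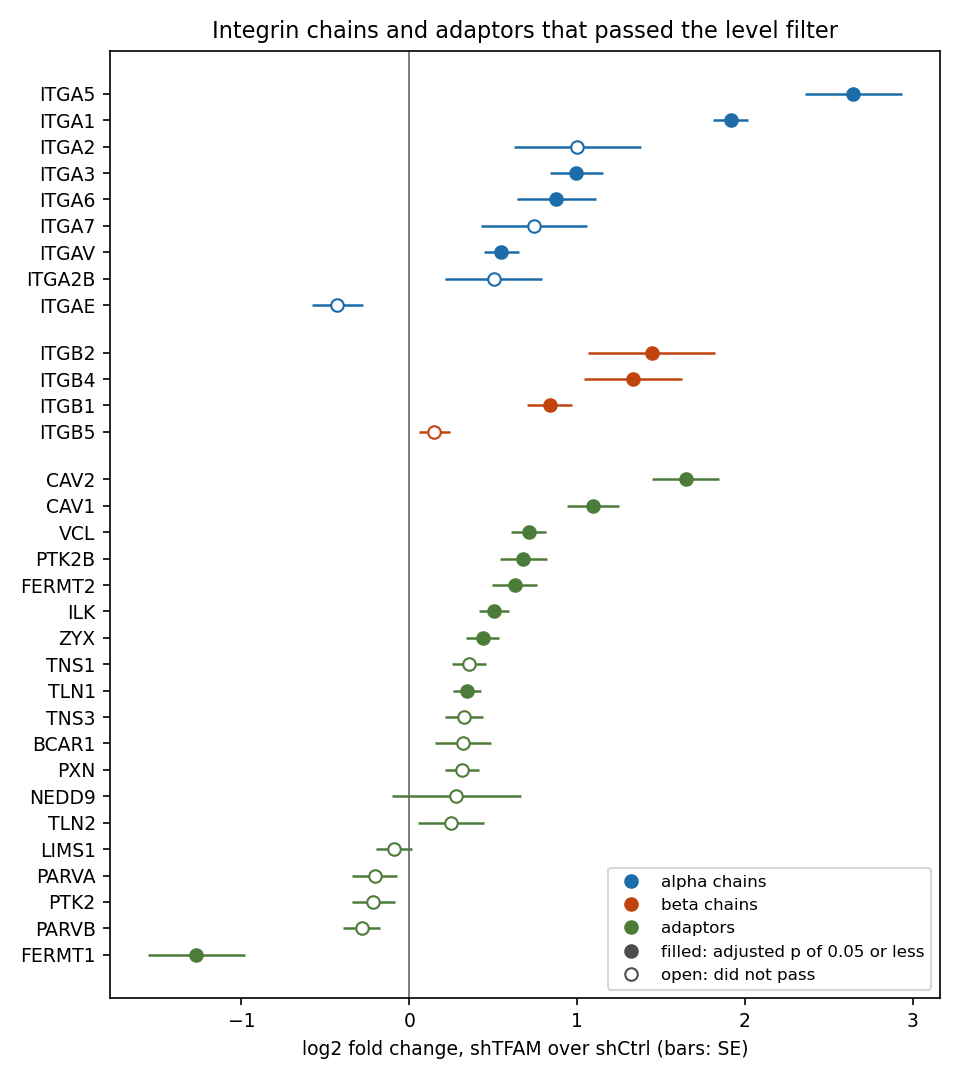
Log2 fold change of the 32 tested members, shTFAM over shCtrl, with SE bars (3 libraries a group); filled points passed an edgeR adjusted p of 0.05 and open points did not. ITGA5 (2.65) and ITGA1 (1.92) lie farthest to the right, FERMT1 (-1.27) farthest to the left, and LIMS1, PARVA, PARVB, PTK2 and ITGAE are the other members left of 0.

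The stretches of 250 bases before the annotated start of 5 members that rose are shown for these reasons: ITGA5 and ITGA1 had the largest log2 fold changes of the tested members, CAV1 and CAV2 are neighbours that rose together, and ITGA6 and CAV1 hold a motif that was searched for. They are read 5′ to 3′ from RefSeq's starts (GRCh38.p14), and capitals mark ACGTG, the core of the hypoxia response element, on either strand.
ITGA5 (chr12:54419267-54419516, minus strand): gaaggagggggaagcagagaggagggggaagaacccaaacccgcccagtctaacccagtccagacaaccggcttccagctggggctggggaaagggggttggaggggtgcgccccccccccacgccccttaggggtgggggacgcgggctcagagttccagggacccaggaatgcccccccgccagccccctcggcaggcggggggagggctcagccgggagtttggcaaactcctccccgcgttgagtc
ITGA1 (chr5:52787666-52787915, plus strand): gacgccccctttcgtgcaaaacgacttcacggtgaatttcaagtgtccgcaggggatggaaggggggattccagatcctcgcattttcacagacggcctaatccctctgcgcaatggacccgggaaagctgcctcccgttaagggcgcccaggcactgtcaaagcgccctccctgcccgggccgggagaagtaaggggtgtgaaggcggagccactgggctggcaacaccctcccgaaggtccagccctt
ITGA6 (chr2:172427086-172427335, plus strand): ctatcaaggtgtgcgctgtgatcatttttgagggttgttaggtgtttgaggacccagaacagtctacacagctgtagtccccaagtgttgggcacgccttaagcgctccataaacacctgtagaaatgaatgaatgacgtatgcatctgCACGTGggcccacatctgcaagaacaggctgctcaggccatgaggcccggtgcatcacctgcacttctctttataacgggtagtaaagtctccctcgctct
CAV1 (chr7:116524759-116525008, plus strand): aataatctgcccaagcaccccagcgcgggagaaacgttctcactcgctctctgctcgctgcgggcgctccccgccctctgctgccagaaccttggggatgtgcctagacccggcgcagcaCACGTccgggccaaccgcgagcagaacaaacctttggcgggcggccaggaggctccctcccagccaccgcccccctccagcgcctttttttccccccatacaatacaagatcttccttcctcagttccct
CAV2 (chr7:116499488-116499737, plus strand): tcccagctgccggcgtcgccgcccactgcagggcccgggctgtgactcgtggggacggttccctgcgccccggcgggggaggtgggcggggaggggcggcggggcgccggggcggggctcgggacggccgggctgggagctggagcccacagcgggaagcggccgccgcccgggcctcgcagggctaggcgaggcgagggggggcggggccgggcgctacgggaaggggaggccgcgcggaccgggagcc
Starts were found by symbol for 32 of 46 members, and the first start listed for each gene was used, which for CAV2 lies within the deposited gene row. ACGTG on either strand was present in 4 of these 32 windows (CAV1, ILK, ITGA11 and ITGA6), or 12.5%, against 18.7% of 27305 windows of the same length, and in 3 of the 12 that belong to members that rose. In ITGA6 it read CACGTG, so that the strands' matches overlap. The CArG box, to which SRF binds, was present in 1 of the 32 windows, that of ITGB6, whose row had 0 counts, against 1.14% of all windows.

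ITGA5, the alpha chain of the classical fibronectin receptor, which binds the RGD motif, showed the largest log2 fold change of the members that passed the filter (ENSG00000161638, chromosome 12, 54395261 to 54419266, minus strand, hg38). It had 74.2, 81.8 and 143 FPKM in shTFAM 1, 2 and 3, against 18.3, 18.4 and 14.3 FPKM in shCtrl 1, 2 and 3. The groups did not overlap, and shTFAM 3 stood well above the other shTFAM libraries. The change was 6.26-fold (log2 fold change 2.65, SE 0.291, edgeR adjusted p 0.00317), and 110 of 14708 tested rows had a larger log2 fold change. Without shTFAM 3 the log2 fold change was 2.26, and the call held without each single library. An antisense row that overlaps ITGA5, AC079313, also rose (log2 fold change 5.25, edgeR adjusted p 0.0149), with 23, 28 and 86 counts in shTFAM against 0, 3 and 0 in shCtrl, and ITGA5 itself had 5988 to 77263 counts per library. As the libraries are bulk RNA, a change in the share of cells that express a gene and a change of RNA per cell cannot be told apart.

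The other RGD-binding chains moved less or did not pass. ITGAV, the alpha chain of the vitronectin receptors (ENSG00000138448, chromosome 2, 186590056 to 186680901, plus strand), had 14.0, 16.7 and 14.1 FPKM in shTFAM 1, 2 and 3, against 10.9, 10.1 and 11.5 FPKM in shCtrl 1, 2 and 3, with no overlap. It rose 1.46-fold (log2 fold change 0.55, SE 0.105, edgeR adjusted p 0.0157), a call lost on leaving out shCtrl 1 (edgeR adjusted p 0.0590) or shCtrl 2 (0.0639). ITGA2B, the platelet alpha chain, had 1.72, 1.65 and 2.52 FPKM in the shTFAM libraries and 1.98, 1.41 and 1.04 FPKM in the shCtrl libraries, overlapping groups, and did not pass (log2 fold change 0.50, edgeR adjusted p 0.258). Of 4 platelet markers PF4, PPBP and GP9 had 0 counts in all libraries, and the summed level of the list was 0.982 to 1.57 FPKM in shTFAM and 1.69 to 2.38 FPKM in shCtrl. ITGA8 was at 0 counts in all 6 libraries.

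Among collagen-binding chains, ITGA1, which prefers basement membrane collagen, rose with closely spaced replicates (ENSG00000213949, chromosome 5, 52787916 to 52959209, plus strand). It had 7.92, 8.01 and 7.73 FPKM in shTFAM 1, 2 and 3, against 2.26, 2.37 and 2.00 FPKM in shCtrl 1, 2 and 3. The groups were far apart and the spread within each was small (3.77-fold; log2 fold change 1.92, SE 0.103, edgeR adjusted p 0.000594), and 5 of all tested rows had a smaller p. The row of ITGA1 holds that of PELO, a ribosome rescue factor on the same strand, and reads could be shared between them. Both rows start at base 52787916, so the window shown above for ITGA1 also lies directly before the PELO row. PELO averaged 11.6 ± 0.869 FPKM in shTFAM and 5.95 ± 0.562 FPKM in shCtrl (SD, n = 3 each), and rose as well (log2 fold change 1.05, edgeR adjusted p 0.00347). With all PELO counts taken away from those of ITGA1, the remainder was 116 ± 5.25 CPM in shTFAM and 17.3 ± 7.08 CPM in shCtrl (SD, n = 3 each), a ratio of 6.70. Because PELO rose less than ITGA1, this ratio had to be larger than that of ITGA1, so it cannot show how many reads were shared. ITGA2, the next gene downstream and the platelet-type collagen receptor chain, had 0.960, 0.803 and 1.75 FPKM in the shTFAM libraries and 0.888, 0.485 and 0.505 FPKM in the shCtrl libraries, and did not pass (log2 fold change 1.00, edgeR adjusted p 0.110). Its groups overlapped, shTFAM 3 being the highest, and DESeq2 called it (adjusted p 0.0322). MOCS2, the next gene, did not pass (log2 fold change -0.37, edgeR adjusted p 0.351). ITGA10 had 0 counts in each shTFAM library and 11, 15 and 0 counts in shCtrl, and ITGA11 had 0, 8 and 0 counts in shTFAM and 0, 4 and 0 in shCtrl.

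The 3 laminin-binding chains lay higher in every shTFAM library than in every shCtrl library, against 18.0% of all tested rows. Of these chains 2 passed, against 17.9% of all tested rows called. ITGA3, a chain of the epithelial laminin-332 receptor (ENSG00000005884, chromosome 17, 50055968 to 50090480, plus strand), had 16.2, 13.8 and 18.2 FPKM in shTFAM 1, 2 and 3, against 9.35, 9.20 and 7.13 FPKM in shCtrl 1, 2 and 3 (1.99-fold; log2 fold change 0.99, SE 0.159, edgeR adjusted p 0.00904). ITGA6, which pairs with ITGB1 or with ITGB4 in hemidesmosomes (ENSG00000091409, chromosome 2, 172427354 to 172506459, plus strand), had 7.40, 12.1 and 11.6 FPKM in shTFAM 1, 2 and 3, against 4.89, 7.24 and 5.79 FPKM in shCtrl 1, 2 and 3. Its lowest shTFAM library, shTFAM 1, was close to the highest shCtrl library, shCtrl 2 (log2 fold change 0.88, SE 0.234, edgeR adjusted p 0.0428). Leaving out any single library but shTFAM 1 lost the ITGA6 call (edgeR adjusted p 0.0561 to 0.122). ITGA7, the muscle-type laminin chain, had 0.551, 0.713 and 1.22 FPKM in the shTFAM libraries and 0.536, 0.503 and 0.550 FPKM in the shCtrl libraries and did not pass (log2 fold change 0.74, edgeR adjusted p 0.144). Its groups almost touched, as shTFAM 1 was barely above shCtrl 3.

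**Figure D2:**
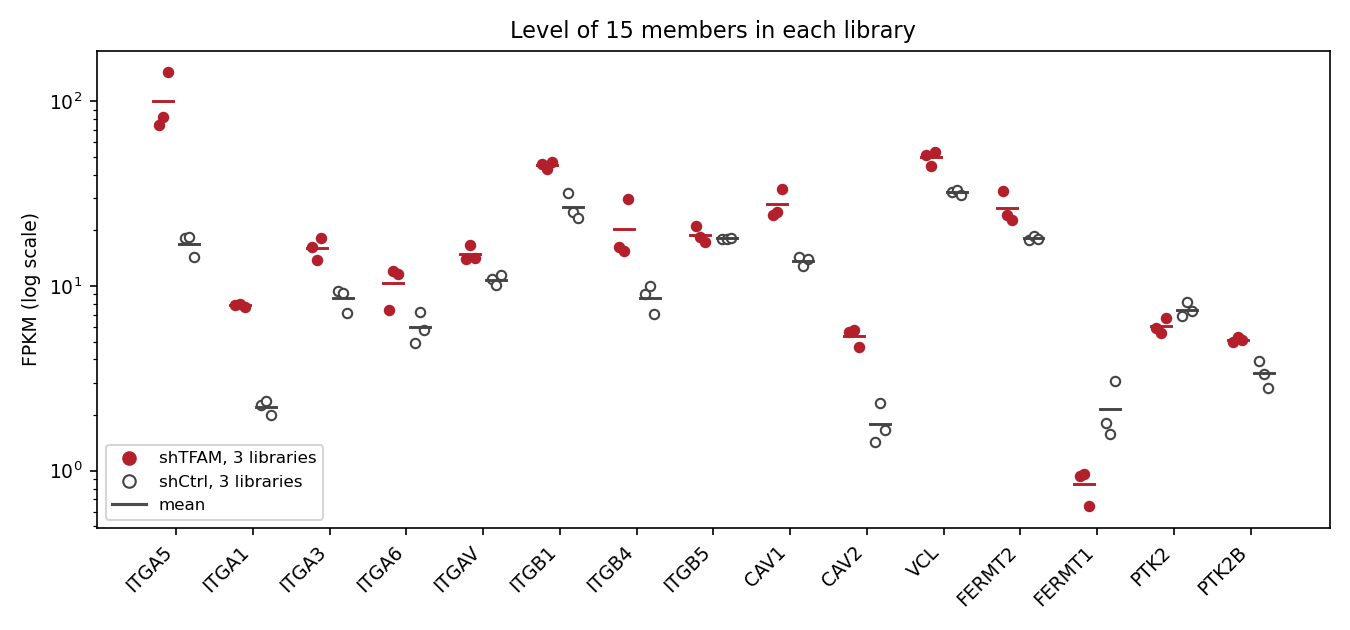
FPKM of 15 members in each library on a log scale, with the group mean as a line (3 shTFAM libraries left, 3 shCtrl libraries right for each gene). ITGA5, ITGA1, CAV1 and CAV2 are separated widely, ITGB5 and PTK2 hardly, and FERMT1 is lower in shTFAM.

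The beta chains gave 3 rises of 4 tested, against 11.3% of all tested rows called higher. ITGB1, the common partner of most alpha chains (ENSG00000150093, chromosome 10, 32900318 to 33005792, minus strand), had 45.8, 43.1 and 46.7 FPKM in shTFAM 1, 2 and 3, against 31.9, 25.1 and 23.4 FPKM in shCtrl 1, 2 and 3. No shTFAM library reached down to the shCtrl range (1.79-fold; log2 fold change 0.84, SE 0.132, edgeR adjusted p 0.00882), and the call held without each single library. ITGB4, the partner of ITGA6 in hemidesmosomes (ENSG00000132470, chromosome 17, 75721328 to 75757818, plus strand), had 16.2, 15.5 and 29.6 FPKM in shTFAM 1, 2 and 3, against 8.99, 9.94 and 7.01 FPKM in shCtrl 1, 2 and 3, shTFAM 3 being the highest (2.52-fold; log2 fold change 1.33, SE 0.291, edgeR adjusted p 0.0239). ITGB4 no longer passed on leaving out shCtrl 1 (edgeR adjusted p 0.0652), shCtrl 2 (0.0539) or shCtrl 3 (0.0652). ITGB5, a partner of ITGAV, had 21.2, 18.4 and 17.2 FPKM in the shTFAM libraries and 18.0, 18.0 and 18.2 FPKM in the shCtrl libraries, overlapping groups, and its log2 fold change of 0.15 did not pass (SE 0.0919, edgeR adjusted p 0.295).

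The remaining beta chains were low. ITGB2, the leukocyte beta chain, had 0.608, 0.676 and 1.26 FPKM in shTFAM 1, 2 and 3, against 0.308, 0.238 and 0.453 FPKM in shCtrl 1, 2 and 3 and passed (log2 fold change 1.45, SE 0.380, edgeR adjusted p 0.0409). ITGB2 no longer passed on leaving out shTFAM 2 (edgeR adjusted p 0.0663), shTFAM 3 (0.0986), shCtrl 1 (0.110) or shCtrl 2 (0.115). Its alpha partners ITGAL, ITGAM, ITGAX and ITGAD summed to 0.136 to 0.366 FPKM in shTFAM and 0.122 to 0.296 FPKM in shCtrl, and the leukocyte markers PTPRC, CD3E, CD53 and TYROBP had 0 counts in all libraries. The summed level of the 9 leukocyte markers was 1.23 to 1.55 FPKM in shTFAM and 0.694 to 0.822 FPKM in shCtrl. The part of this list in the ITGB2 result was not tested. An antisense row, ITGB2-AS1, had 49, 69 and 192 counts in shTFAM and 24, 38 and 32 counts in shCtrl, beside 234, 256 and 638 counts of ITGB2 in shTFAM and 109, 99 and 179 counts in shCtrl, and shared reads were not tested. ITGB3, the beta chain of the platelet and vitronectin receptors, lay below the filter with 27, 78 and 229 counts in shTFAM 1, 2 and 3, against 14, 8 and 15 counts in shCtrl. Its groups did not overlap, and a fit with no filter gave a log2 fold change of 3.01 (SE 0.707, edgeR adjusted p 0.0441). ITGB8, a partner of ITGAV, had 265, 358 and 571 counts in shTFAM and 213, 188 and 238 in shCtrl and did not pass in that fit (log2 fold change 0.82, edgeR adjusted p 0.0964).

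The 14 members below the filter were 9 alpha chains, 4 beta chains and SRC. ITGA4, ITGA8, ITGA9 and ITGB6 had 0 counts in all libraries. ITGAE, the mucosal lymphocyte chain, passed the filter and had 1.08, 1.02 and 1.04 FPKM in the shTFAM libraries and 1.62, 1.29 and 1.60 FPKM in the shCtrl libraries, lower in all shTFAM libraries, without passing (log2 fold change -0.43, edgeR adjusted p 0.0932); DESeq2 called it (adjusted p 0.0470), as did edgeR with scaling to counts outside mitochondrial DNA (0.0435). SRC, the founding SRC-family kinase, had 38, 44 and 98 counts in shTFAM and 19, 40 and 38 counts in shCtrl, under 0.5 FPKM in every library. In the fit with no filter, ITGB3 passed, and ITGAL, ITGA11, ITGB7, ITGAX, ITGA10, ITGAD, ITGAM, ITGB8 and SRC did not.

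Levels per gene length show how the make-up of integrin transcripts differed. Summed over the 18 alpha chains, the level was 124, 137 and 202 FPKM in shTFAM 1, 2 and 3, against 50.9, 51.1 and 44.7 FPKM in shCtrl. ITGA5 was the most abundant alpha chain in every library and took 59.7, 59.8 and 71.0% of the sum in shTFAM, against 35.9, 35.9 and 32.0% in shCtrl. After it came ITGA3 (16.1 ± 2.19 FPKM) and ITGAV (15.0 ± 1.51 FPKM) in shTFAM, which did not differ beyond their spread, then ITGA6 (10.4 ± 2.57 FPKM) and ITGA1 (7.89 ± 0.142 FPKM; SD, n = 3). In shCtrl the order was ITGAV (10.8 ± 0.697 FPKM), ITGA3 (8.56 ± 1.24 FPKM), ITGA6 (5.98 ± 1.19 FPKM) and ITGA1 (2.21 ± 0.193 FPKM; SD, n = 3). ITGAV took 10.2 ± 2.79% of the alpha sum in shTFAM and 22.3 ± 3.09% in shCtrl (SD, n = 3 each), although its own level was higher in shTFAM. The laminin-binding chains took 15.4 to 19.5% in shTFAM and 29.0 to 33.1% in shCtrl.

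The ratio of alpha-chain to ITGB1 transcripts separated the groups with ITGA5 counted and not without it. The alpha chains that can pair with ITGB1, summed, came to 2.65, 3.11 and 4.23 times the FPKM of ITGB1 in shTFAM 1, 2 and 3, against 1.48, 1.92 and 1.78 times in shCtrl. Without ITGA5 the ratio was 1.03, 1.21 and 1.17 in shTFAM and 0.903, 1.19 and 1.17 in shCtrl, and the groups overlapped. Among beta chains, ITGB1 took 52.7 ± 3.42% of the summed FPKM in shTFAM and 49.3 ± 3.72% in shCtrl, ITGB4 took 23.3 ± 6.58% and 15.9 ± 2.30%, and ITGB5 took 22.2 ± 3.78% and 33.6 ± 3.28% (SD, n = 3 each). All 46 members together took 0.435 to 0.534% of counts in shTFAM and 0.282 to 0.294% in shCtrl, and 0.364 to 0.408% and 0.269 to 0.278% with ITGA5 left out.

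**Figure D3:**
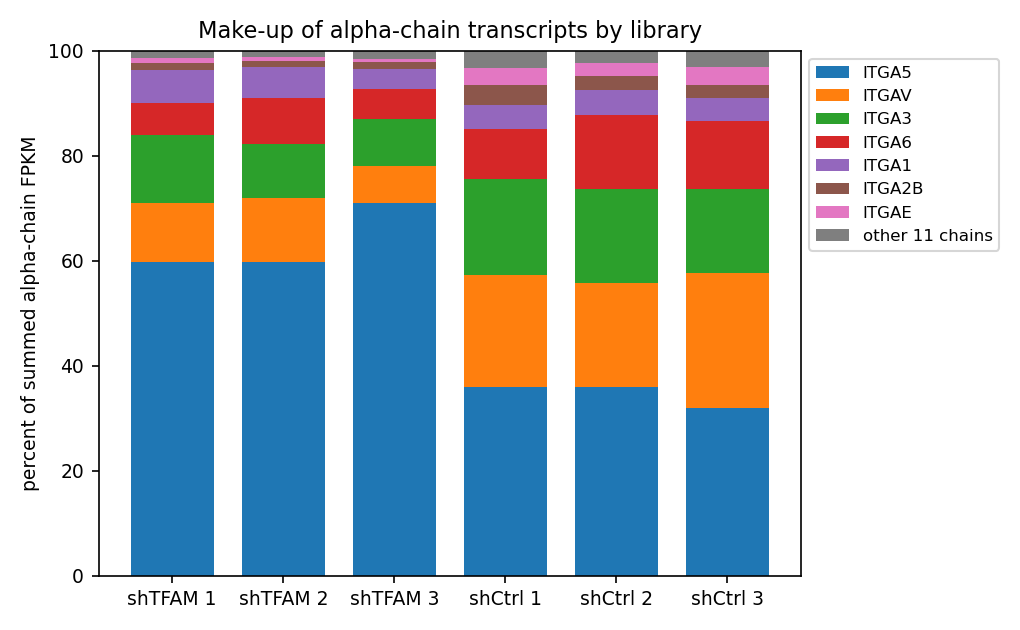
Share of each alpha chain in the summed alpha-chain FPKM, in percent, for each library. The ITGA5 block fills 59.7 to 71.0% of the 3 shTFAM bars and 32.0 to 35.9% of the 3 shCtrl bars, while the ITGAV, ITGA3 and ITGA6 blocks are narrower in shTFAM.

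Both caveolins rose, CAV2 with the largest log2 fold change of the tested adaptors. CAV1 and CAV2 form the coat of caveolae, membrane pits that take up integrins and buffer tension, and lie next to each other on chromosome 7 (CAV1, 116525001 to 116561179; CAV2, 116287380 to 116508541; plus strand). CAV2 had 5.65, 5.78 and 4.65 FPKM in shTFAM 1, 2 and 3, against 1.43, 2.31 and 1.66 FPKM in shCtrl 1, 2 and 3 (3.13-fold; log2 fold change 1.65, SE 0.199, edgeR adjusted p 0.00380). CAV1 had 24.3, 25.2 and 33.3 FPKM in shTFAM 1, 2 and 3, against 14.3, 12.9 and 14.0 FPKM in shCtrl 1, 2 and 3 (2.14-fold; log2 fold change 1.10, SE 0.156, edgeR adjusted p 0.00623). In neither gene did the groups overlap, and both calls held without each single library. The identifiers are ENSG00000105974 for CAV1 and ENSG00000105971 for CAV2. Within 200 kb of this pair, MET (log2 fold change 0.17, edgeR adjusted p 0.285) and TES (-0.14, edgeR adjusted p 0.320) did not pass. Of 4 other tested genes of caveolae, 2 rose and 2 did not pass, with a list median of 0.57. Over all tested rows, 11.3% were called higher. Those of the list that rose were EHD2 (log2 fold change 1.26), an ATPase of the caveolar neck, and CAVIN1 (0.82), the coat protein that stabilises caveolae.

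Of the activators, the widely expressed talin and kindlin rose and the epithelial kindlin fell. TLN1, the main talin, had 32.4, 29.8 and 31.6 FPKM in the shTFAM libraries and 26.3, 25.5 and 26.3 FPKM in the shCtrl libraries (1.27-fold; log2 fold change 0.35, SE 0.0826, edgeR adjusted p 0.0309), a call lost on leaving out any single library but shCtrl 3 (edgeR adjusted p 0.0585 to 0.106). TLN2 had 1.04, 0.952 and 0.819 FPKM in the shTFAM libraries and 1.02, 0.850 and 0.629 FPKM in the shCtrl libraries and did not pass (log2 fold change 0.25, edgeR adjusted p 0.410). FERMT2, kindlin-2, had 32.5, 24.3 and 22.6 FPKM in shTFAM 1, 2 and 3, against 17.6, 18.6 and 18.0 FPKM in shCtrl 1, 2 and 3 (1.55-fold; log2 fold change 0.63, SE 0.132, edgeR adjusted p 0.0213). FERMT1, kindlin-1, the form typical of epithelia, had 0.939, 0.960 and 0.641 FPKM in shTFAM 1, 2 and 3, against 1.82, 1.59 and 3.06 FPKM in shCtrl 1, 2 and 3, and fell 2.41-fold (log2 fold change -1.27, SE 0.288, edgeR adjusted p 0.0269). FERMT2 no longer passed on leaving out shCtrl 1 (edgeR adjusted p 0.0758), shCtrl 2 (0.0606) or shCtrl 3 (0.0540), nor FERMT1 on leaving out shTFAM 1 (0.0612), shTFAM 2 (0.0621), shTFAM 3 (0.0820) or shCtrl 1 (0.0517).

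In the complex of ILK, PINCH and parvins, ILK, its scaffold pseudokinase, rose and its partners among the members did not. LIMS2, a second PINCH gene that is not a member, rose (log2 fold change 1.23, edgeR adjusted p 0.0311). Its level was low, at 0.787 FPKM on average in shTFAM and 0.354 FPKM in shCtrl. ILK had 27.3, 28.1 and 29.1 FPKM in the shTFAM libraries and 21.3, 21.3 and 20.4 FPKM in the shCtrl libraries, with no overlap (1.42-fold; log2 fold change 0.51, SE 0.0903, edgeR adjusted p 0.0126). LIMS1, a PINCH protein (-0.09, edgeR adjusted p 0.593), the parvin PARVA (-0.21, edgeR adjusted p 0.322) and the parvin PARVB (-0.28, edgeR adjusted p 0.1196) had negative log2 fold changes and did not pass. PARVB was at 3.31, 3.08 and 3.12 FPKM in the shTFAM libraries and 3.79, 3.92 and 4.58 FPKM in the shCtrl libraries, without overlap.

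The 4 actin linkers all lay higher in every shTFAM library than in every shCtrl library, against 18.0% of all tested rows. Vinculin, VCL, which couples talin to actin under force (ENSG00000035403, chromosome 10, 73995193 to 74120169, plus strand), had 51.3, 44.8 and 53.1 FPKM in shTFAM 1, 2 and 3, against 32.2, 33.1 and 31.2 FPKM in shCtrl 1, 2 and 3 (1.64-fold; log2 fold change 0.71, SE 0.105, edgeR adjusted p 0.00705), and the call held without each single library. Zyxin, ZYX, a LIM protein of mature adhesions, had 43.5, 39.5 and 37.8 FPKM in the shTFAM libraries and 32.7, 32.9 and 28.7 FPKM in the shCtrl libraries (1.35-fold; log2 fold change 0.44, SE 0.0971, edgeR adjusted p 0.0251), a call lost on leaving out any single library but shCtrl 3 (edgeR adjusted p 0.0544 to 0.0774). The tensins TNS1 (log2 fold change 0.35, edgeR adjusted p 0.0523) and TNS3 (0.33, edgeR adjusted p 0.0908), which link the beta tail to actin in fibrillar adhesions, did not pass, though their groups did not overlap. DESeq2 called TNS1 (adjusted p 0.0301).

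Among kinases and scaffolds, 1 of 5 tested genes passed, a share near the 17.9% of all tested rows called. PTK2B, which encodes PYK2, the calcium-responsive relative of FAK, had 4.96, 5.28 and 5.07 FPKM in the shTFAM libraries and 3.94, 3.35 and 2.80 FPKM in the shCtrl libraries (1.60-fold; log2 fold change 0.68, SE 0.140, edgeR adjusted p 0.0203). PTK2B no longer passed on leaving out shTFAM 2 (edgeR adjusted p 0.0628), shTFAM 3 (0.0588) or shCtrl 2 (0.0640). PTK2, which encodes FAK itself, had 5.93, 5.53 and 6.71 FPKM in the shTFAM libraries and 6.83, 8.20 and 7.33 FPKM in the shCtrl libraries, lower in shTFAM in all libraries without passing (log2 fold change -0.21, edgeR adjusted p 0.272). Paxillin, PXN, the most abundant of the 5, was at 39.3 ± 2.83 FPKM in shTFAM and 33.5 ± 1.19 FPKM in shCtrl (SD, n = 3 each), with groups that did not overlap, and did not pass (log2 fold change 0.31, edgeR adjusted p 0.0742). The CAS proteins BCAR1 (log2 fold change 0.32, edgeR adjusted p 0.216) and NEDD9 (0.28, edgeR adjusted p 0.649) did not pass, and NEDD9 was low in shCtrl 3 alone, with 2.25, 1.95 and 1.57 FPKM in the shTFAM libraries and 2.11, 2.17 and 0.731 FPKM in the shCtrl libraries.

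Ratios of related members within a library do not depend on how libraries are scaled, and 11 pairs were compared. The log2 ratio of FERMT2 to FERMT1 was 5.11, 4.66 and 5.14 in shTFAM 1, 2 and 3, against 3.28, 3.55 and 2.56 in shCtrl, a difference of 1.84. The log2 ratio of ITGAV to ITGA5 was -2.40, -2.29 and -3.34 in shTFAM and -0.75, -0.86 and -0.31 in shCtrl, a difference of -2.04. That of PTK2B to PTK2 was -0.26, -0.07 and -0.41 in shTFAM and -0.79, -1.29 and -1.39 in shCtrl, a difference of 0.91. That of ITGB3 to ITGB5 differed by 2.61, ITGB3 being low in counts. In these 4 pairs the groups did not overlap, and each had a two-sided exact permutation p of 0.1, the smallest that 3 against 3 libraries can give, or 0.275 adjusted over the 11 pairs. In the other 7 the groups overlapped, among them CAV2 to CAV1 (difference 0.60, two-sided exact permutation p 0.2) and ITGA1 to ITGA2 (0.96, two-sided exact permutation p 0.2). For PARVB to PARVA, TLN2 to TLN1 and TNS3 to TNS1 the differences were -0.07, -0.07 and -0.02 with SD of up to 0.355 within a group.

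**Figure D4:**
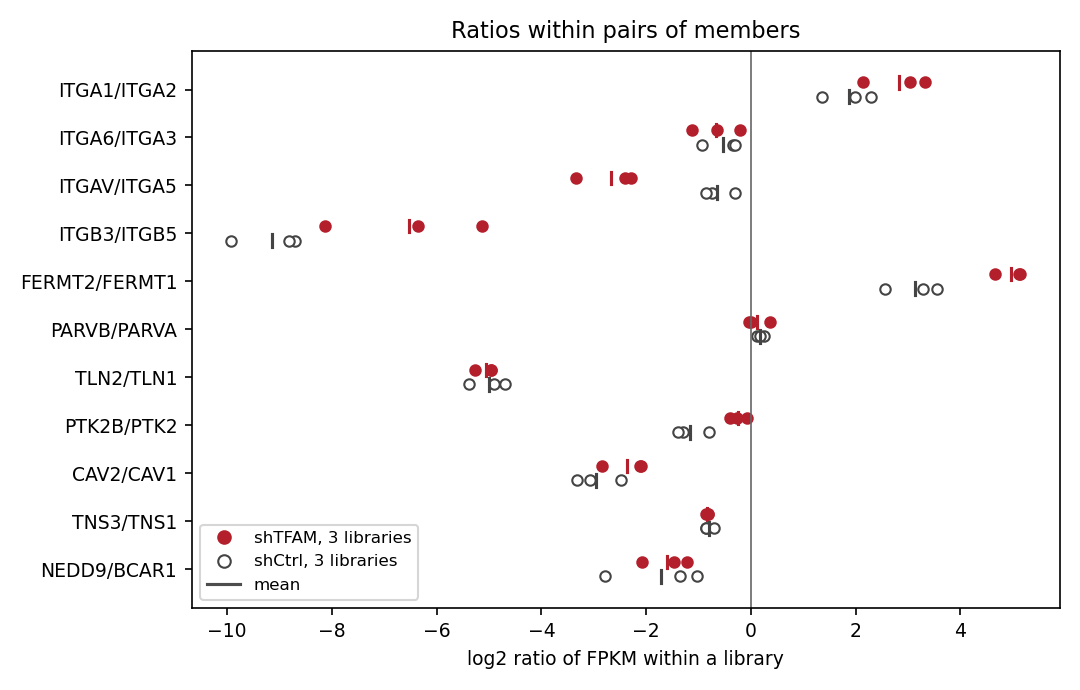
Log2 ratio of FPKM within each library for 11 pairs of members, with group means as ticks (3 shTFAM libraries above, 3 shCtrl libraries below in each row). The groups are apart for ITGAV/ITGA5, ITGB3/ITGB5, FERMT2/FERMT1 and PTK2B/PTK2 and overlap for the other 7 pairs.

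Of 133 other genes of integrin adhesion, in 5 lists, 105 were tested, of which 36 rose and 4 fell (median log2 fold change 0.32), or 38.1% called against 17.9% of all rows. Of 24 tested integrin ligands 14 rose and 2 fell (median 0.86). Fibronectin FN1, the ligand of the ITGA5 receptor, averaged 74.7 ± 18.6 FPKM in shTFAM and 3.20 ± 0.844 FPKM in shCtrl (SD, n = 3 each), a log2 fold change of 4.63 with edgeR adjusted p 0.000699. Nidogen NID1 (3.41) and collagen chain COL4A2 (1.03) were also among the ligands with the smallest p. The 2 that fell were vitronectin VTN, a ligand of ITGAV receptors (log2 fold change -1.85, edgeR adjusted p 0.0179), and FBLN5, an elastic fibre protein (-0.96, edgeR adjusted p 0.0111), both chosen after their values were seen. Of 12 tested membrane partners 7 rose and none fell (median 0.45), led by the tetraspanin CD9 (0.69), the urokinase receptor PLAUR (1.17) and the syndecans SDC4 (1.01) and SDC1 (0.46). Of 56 tested members of the adhesion complex 11 rose and 2 fell (median 0.09), a share of 23.2% that was near the 17.9% of all rows. Those that rose included TNS4 (0.77), KANK4 (1.53), KANK2 (0.66) and the actinin ACTN4 (0.71). The 2 that fell, likewise chosen later, were CSK, the kinase that restrains SRC-family kinases (-0.90), and GIT2, an ARF GTPase-activating scaffold (-0.44). Of 9 tested trafficking genes, RAB11FIP1 (0.69) and ARF6 (0.57) rose and 7 did not pass, with a median of 0.01 and a share called of 22.2%, also near that of all rows. The calls came to 40 in all and to 26 without shCtrl 2, where PLAUR (edgeR adjusted p 0.0516) and ARF6 (0.0566) were lost; SDC1 was lost on leaving out any single library but shCtrl 3 (0.0522 to 0.0843).

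Some markers of another cell type rose in shTFAM, while others on the list did not. Of 7 fibroblast or stellate markers, 6 were tested and 3 rose, PDGFRB (6.05, 6.05 and 5.03 FPKM in the shTFAM libraries and 1.86, 1.81 and 1.93 FPKM in the shCtrl libraries), THY1 (16.2, 17.3 and 17.3 FPKM in the shTFAM libraries and 6.39, 6.39 and 5.63 FPKM in the shCtrl libraries) and DCN (1.16, 1.47 and 1.81 FPKM in the shTFAM libraries and 0.158, 0.162 and 0.284 FPKM in the shCtrl libraries). The list summed to 53.1 to 58.1 FPKM in shTFAM and 30.5 to 44.7 FPKM in shCtrl. COL1A1, at 29.5 ± 2.77 FPKM in shTFAM and 29.4 ± 7.19 FPKM in shCtrl (SD, n = 3 each), did not pass, and COL1A2 had 0 counts in all libraries. LUM (log2 fold change 1.17, edgeR adjusted p 0.0925) and ACTA2 (-0.68, edgeR adjusted p 0.226) did not pass either, and their groups overlapped. The part of these markers in the rises of ITGA1, ITGA5 and the caveolins was not tested.

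**Figure D5:**
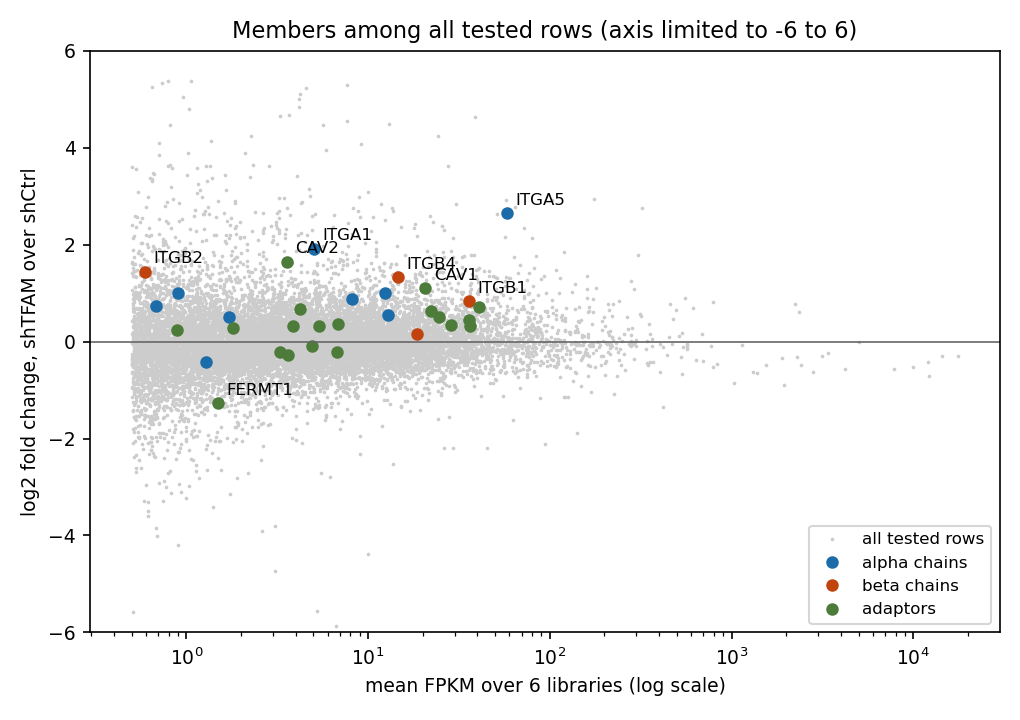
Log2 fold change, shTFAM over shCtrl, against mean FPKM over 6 libraries (log axis) for all 14708 tested rows in grey and the 32 tested members in colour; 25 rows lie beyond the axis limits of -6 and 6. Most members of both integrin classes sit above 0, with ITGA5 (2.65) high for its abundance, and adaptors lie nearer to 0.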

How the data were processed

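Poly(A) RNA gave libraries that mark strand, read as pairs, per the labels' protocols. Tools listed in the submitters' processing notes, with no role, are StringTie 1.3.4d, HISAT2 2.0.4, cutadapt 1.9 and Bowtie 0.12.2. Builds listed there are hg38 and mm8; how reads were counted and the strand setting are not given in the sources used here, so overlapping and antisense genes can share reads. The authors deposited 60612 gene rows with whole-number counts and FPKM, per the file headers. Columns were matched to samples by title, and replicates were numbered in accession order.

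A mean of 0.5 FPKM or more was required of a row (14708 rows, holding 99.4 to 99.5% of counts). These were tested with edgeR 4.0.16 (quasi-likelihood, TMM factors 0.951 to 1.04, trended dispersion) in R 4.3.3, two-sided, and p was adjusted after Benjamini and Hochberg across every row tested. For SE, the fitted log2 change was divided by the square root of its F statistic. Fold changes are TMM-scaled, while the deposited FPKM follow library totals. The test was tested on simulated data. Alternatives used DESeq2 1.42.0 and limma 3.58.1 on log2(FPKM + 1) and log2(FPKM + 0.1). Pair ratios used exact permutation in scipy 1.17.1. No replicate pair agreed within sampling noise (lowest chi-square per degree of freedom 41.9). All members, TFAM, and neighbours within 200 kb and per list the 4 called genes with the smallest p are named; any other gene was picked with its values known, and some results are not reported here. A planned look at protein tails was not made, and no protein sequence was used here. Members and lists were chosen with earlier results of these data known.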

Additional observations from a re-analysis of the deposited data

How the results depend on the processing

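No paired analysis was possible because the labels give the groups no shared replicate numbers. All 17 called members kept their direction in each alternative run that tested them. In each such run, 8 kept their call at an adjusted p of 0.05 (ITGA5, ITGA1, ITGA3, ITGB1, CAV1, CAV2, VCL and ILK). CAV2, with a mean of 3.58 FPKM, was not in the fit of rows of at least 5 FPKM. Leaving out each library in turn gave 9 to 14 called members, 3 to 5 alpha chains, 1 to 3 beta chains, 5 to 8 adaptors and 26 to 37 other adhesion genes, with 1 sample fewer in each fit. An adjusted p of 0.01, a stricter threshold by construction, left 7 members, 3 alpha chains, 1 beta chain, 3 adaptors and 22 other adhesion genes. For NEDD9, called in none of these fits, the log2 fold change ranged from -0.086 (without shCtrl 3, a reversed sign) to 0.524 on leaving out single libraries; the cause was not tested. In an alternative chosen after seeing the data, the ITGA5 share of alpha-chain FPKM, higher by 28.9 percentage points in shTFAM, was higher by 25.15 to 30.8 points without single libraries. Other settings ended the calls of ITGA6 (edgeR adjusted p 0.0594 with no filter and 0.0573 with scaling outside mitochondrial DNA; limma adjusted p 0.0603), TLN1 (edgeR adjusted p 0.0636 with library totals), ZYX (limma adjusted p 0.0539), ITGB2 (limma adjusted p 0.0905) and FERMT1 (limma adjusted p 0.0541 with quantile normalization). Scaling to library totals gave a median log2 fold change of all rows of -0.09, and scaling outside mitochondrial DNA -0.147, against -0.015 with TMM. Under the scaling outside mitochondrial DNA, PARVB was called lower (edgeR adjusted p 0.0384). Of the 14 members under 0.5 FPKM, ITGA4, ITGA8, ITGA9 and ITGB6 had 0 counts in all libraries, so no difference was detectable there at this depth.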
